A study of Mus musculus with 18 samples.

Results

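The genes described here are 39 genes of the unfolded protein response and of the linked response to a shortage of amino acids, measured in the mouse distal colon through the day. They were chosen by name from known functions in protein folding in the endoplasmic reticulum (ER), in ER degradation and as targets of the transcription factor Atf4. All 39 had a probe set on the array and passed the filter on low signals, and they stood among 12870 genes tested. Total RNA was taken from the distal colon a short way above the anus, on 18 Affymetrix arrays. The samples form 6 collection times of 3 arrays each: 8am, 12pm and 4pm in the light, then 8pm, 12am and 4am in the dark, with the lights switched on at hour 7 and off at hour 19 of the clock. These times are 1, 5, 9, 13, 17 and 21 h after lights on. All mice were kept on this light cycle with food always available and with no other treatment in the labels. Strain, sex and age are not given in the sources used here, and no label tells whether arrays of 1 time come from separate animals, so p-values reflect only how these samples vary, which may be technical.

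The ER is where secreted and membrane proteins are folded, and the colon epithelium, with its mucus-secreting goblet cells, makes much secreted protein. When unfolded protein gathers there, the membrane sensors Ern1 (IRE1), Eif2ak3 (PERK) and Atf6 raise transcription of chaperones, disulfide isomerases and degradation genes, partly through the transcription factor Xbp1. PERK also slows translation while favouring that of Atf4, which is shared with the response to missing amino acids and which turns on Ddit3 (CHOP), Trib3, Chac1, Sesn2, Asns and genes of serine and one-carbon metabolism. In whole tissue, fewer cells of a type and less RNA per cell cannot be told apart.

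Some arrays stand apart. The 3′/5′ ratio of the Gapdh control, a check of RNA integrity, reached 34.3 (4pm b), 2.33 (4pm c), 36.0 (4am a) and 18.2 (4am b), whereas the other 14 arrays lay between 0.746 and 1.12. Tests over the 6 times were therefore repeated without these 4 arrays. The median signal per array lay between 127 and 251. It was 160 to 184 in the arrays of 8am and 8pm and 187 to 251 in those of 12pm and 12am, with no overlap. All 7 colon epithelium markers (Epcam, Krt8, Krt20, Cdx2, Vil1, Car1 and Slc26a3) passed the filter, as did 9 of the 10 goblet cell markers listed. The signals carry no detection call. Precision is limited by having 3 arrays per time, and the level of one gene is not set against that of another.

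Promoter sequences show what the genes share apart from their function. RefSeq windows of 250 bases before to 50 after the start site (build GRCm38.p6) were at hand for 34 of the 39 genes, with none for Atf6, Hyou1, Manf, Sec61a1 and Derl1. The ER stress element, searched on both strands as CCAAT, any 9 bases, then CCACG, was in 8 of the 34 (23.5%): Hspa5, Hsp90b1, Dnajc3, Creld2, Calr, Canx, Pdia6 and Syvn1. It was in 0.137% of all 27025 genes with a window. The shorter ERSE-II, ATTGG, any base, then CCACG, was in Dnajb11 and Herpud1 (5.88%, against 0.0444% of all genes). The element TGACGTGG was in none of the 34, against 0.714% of all genes. The Atf4 element searched as TGATGNAA was in Herpud1, Trib3, Chac1 and Asns (11.8%, against 4.51% of all genes). CCAAT and CCACG each form part of the first 2 motifs, so those searches overlap. Many of these genes are textbook carriers of these elements, and a match is a description of letters, not a bound site. The matches below have the element in capitals and 12 bases on either side, on the gene's strand. Those of Hspa5 (chr2:34772013-34772055, plus strand), Canx (chr11:50325788-50325830, minus strand), Herpud1 (chr8:94386365-94386399, plus strand), Chac1 (chr2:119351037-119351068, plus strand) and Asns (chr6:7693213-7693244, minus strand) are shown as one chaperone, one lectin, one degradation gene and a pair of Atf4 targets whose values follow.
Hspa5, ER stress element: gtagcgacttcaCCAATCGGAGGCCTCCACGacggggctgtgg
Canx, ER stress element: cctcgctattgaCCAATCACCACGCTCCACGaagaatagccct
Herpud1, ERSE-II: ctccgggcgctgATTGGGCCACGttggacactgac
Chac1, Atf4 element, reverse strand: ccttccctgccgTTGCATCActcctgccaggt
Asns, Atf4 element: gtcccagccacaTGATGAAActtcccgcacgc

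Pdia4 and Sdf2l1, described below, hold none of these 4 elements in the window. Pdia3 and Ddit3, which also changed with time, hold none either, so this lack is not particular to Pdia4 and Sdf2l1. For Pdia4 and Sdf2l1 the 250 bases before the start site are shown as examples, with every CCAAT and CCACG, on either strand, in capitals. In the whole window, CCAAT was in 76.5% of the 34 genes and 41.1% of all genes, and CCACG in 79.4% and 35.5%. Pdia4 (chr6:47813513-47813762, minus strand) has 3 CCAAT and 0 CCACG there, and Sdf2l1 (chr16:17132384-17132633, minus strand) has 3 of each.
Pdia4: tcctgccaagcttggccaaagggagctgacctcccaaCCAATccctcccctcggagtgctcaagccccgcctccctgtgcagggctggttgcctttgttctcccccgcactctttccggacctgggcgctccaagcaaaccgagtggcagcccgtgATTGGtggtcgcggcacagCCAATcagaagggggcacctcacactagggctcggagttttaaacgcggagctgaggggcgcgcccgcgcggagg
Sdf2l1: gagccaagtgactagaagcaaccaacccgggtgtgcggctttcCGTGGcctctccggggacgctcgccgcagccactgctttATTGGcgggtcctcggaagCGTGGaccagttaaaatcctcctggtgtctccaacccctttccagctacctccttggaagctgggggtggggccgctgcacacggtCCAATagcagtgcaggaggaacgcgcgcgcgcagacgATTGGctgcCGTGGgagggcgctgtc

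Across the 6 times, 5 of the 39 genes changed: the folding genes Pdia4, Pdia3, Sdf2l1 and Canx and the transcription factor gene Ddit3 (limma F test of any difference between times, adjusted p under 0.05). That is 12.8% of the genes described, and 17% of all genes tested passed the same test, so the count is no higher than the background. At an unadjusted p under 0.05 there were 14 (35.9%), against 42.3% of all genes. The same 5 passed in the comparison of the 12-o'clock arrays (12pm and 12am) with the 8-o'clock arrays (8am and 8pm), in which 14.1% of all genes passed. There 9 of the 39 (23.1%) had an unadjusted p under 0.05, against 29% of all genes. Pdia4, Pdia3, Sdf2l1 and Canx were lower and Ddit3 higher at 12-o'clock. Among all genes, 4.65% passed as lower and 9.46% as higher. This comparison uses only times whose arrays all have a low Gapdh ratio, and it was chosen with earlier results in view. The other 34 genes did not pass in either test, and none of the 39 passed the test of a 24 h rhythm.

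**Figure D1:**
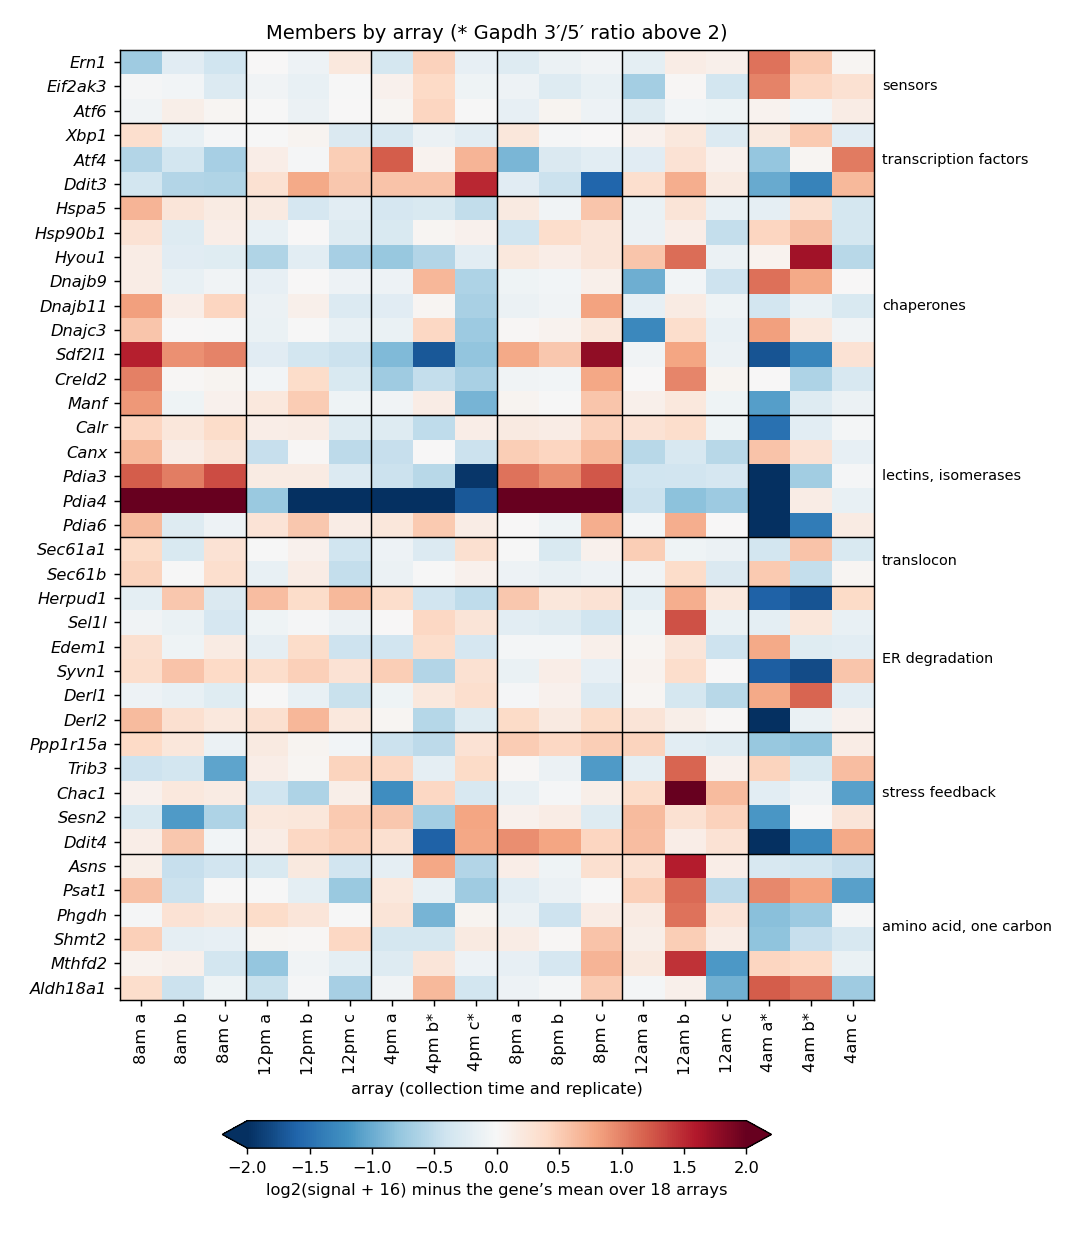
Colour shows log2(signal + 16) minus the gene's mean over the 18 arrays for each of the 39 genes (rows, grouped by role) in each array (columns, by collection time and replicate letter; an asterisk marks a Gapdh 3′/5′ ratio above 2). Pdia4 and Pdia3 are high in the 6 arrays of 8am and 8pm, 12am b is high for Chac1, Asns and Mthfd2, and 4am a and 4am b depart from 4am c in many rows.

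Pdia4, a disulfide isomerase of the ER, showed the largest change of the 39 (chr6:47796141-47813512). Its signals were 108, 21.2 and 28.5 at 12pm and 138, 102 and 109 at 12am, against 1177, 1561 and 1321 at 8am and 1376, 1216 and 1919 at 8pm. At 4pm they were 33.6, 16.6 and 48.4, and at 4am 14.5, 216 and 172. The 6 arrays of 8am and 8pm lay above all 12 others, with no overlap, both in the light and in the dark. The 12-o'clock mean was lower by 16.2-fold, a log2 difference of -4.02 ± 0.41 (SE; adjusted p = 3.44e-05), and the adjusted p of the 6-time test was 0.000247. The mean log2 values of 12pm, 4pm, 12am and 4am, 5.56 to 7.04, lie under the filter threshold of 7.10, so Pdia4 passed the filter through 8am and 8pm alone. With no filter the adjusted p of the difference was 3.29e-05. The background under the low signals is unknown, so the fold only describes these values: the log2 difference was -4.34 with a constant of 1 and -3.38 with 64.

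Pdia3 (ERp57, chr2:121413902-121438687) forms disulfide bonds in glycoproteins held by calnexin and calreticulin. It had signals of 6387, 6394 and 4719.8 at 12pm and 4312, 4405 and 4533 at 12am, against 13213, 11592 and 14170.4 at 8am and 12193, 10863 and 13600 at 8pm. At 4pm it had 4257, 3873 and 1476, and at 4am it had 1338, 3542 and 5645. As for Pdia4, the 8-o'clock arrays were above all 12 others. The log2 difference was -1.31 ± 0.29 (adjusted p = 0.00723), 2.48-fold lower at 12-o'clock, with an adjusted p of 0.00682 over the 6 times. These were the only members, 5.13% of the 39, whose 8-o'clock arrays lay above or below every other array, against 2.69% of all genes. Pdia4 passed the filter only through its 8-o'clock arrays, so its place in this count is not independent of the filter.

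Canx, the membrane lectin calnexin (chr11:50293957-50325673), had signals of 4639, 6470.2 and 4399 at 12pm and 4305, 5073 and 4307 at 12am, against 9938, 7029 and 7582 at 8am and 8958, 8558 and 9990.0 at 8pm. At 4pm it had 4594, 6397 and 4702, and at 4am 9447, 7791 and 5692. The 12-o'clock and 8-o'clock arrays did not overlap, and the 2 highest values at 4am came from the arrays of high Gapdh ratio. The log2 difference was -0.84 ± 0.15 (adjusted p = 0.00241), 1.79-fold lower at 12-o'clock, and the 6-time adjusted p was 0.0190. The call is lost when the probe set with the largest SD stands for the gene (adjusted p = 0.0569 over the 6 times and 0.0534 for the difference).

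The other lectin and the other isomerase did not follow them. Calr, the soluble lectin calreticulin, ran between 3649 in 4am a and 14206 in 8pm c, with a log2 difference of -0.21 ± 0.20. Pdia6 had 2383, 1280.3 and 1419.7 at 8am, 1852, 2237 and 1708 at 12pm, then 1787, 2217 and 1700.1 at 4pm, 1546, 1446 and 2532 at 8pm, then 1494, 2547 and 1544 at 12am and 306, 572 and 1722 at 4am. Its 2 low values are those of 4am a and 4am b, both of high Gapdh ratio, and the groups at the other times overlap. Its adjusted p over the 6 times was 0.0815 with all arrays and 0.978 without the 4 of high ratio.

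Other probe sets of these genes behave differently. The second probe set of Pdia4 stayed under the filter, with mean log2 values of 5.41 at 12pm and 6.56 at 12am, against 6.15 at 8am and 5.94 at 8pm. The second of Pdia3 passed the filter and had 8.73 at 12pm and 8.75 at 12am, against 8.31 at 8am and 8.49 at 8pm (log2 difference 0.34 ± 0.13, adjusted p = 0.0993 in a fit of every probe set). For Canx, one further set gave -0.84 ± 0.27 (adjusted p = 0.0514) and the other -0.34 ± 0.20 (adjusted p = 0.308). The patterns of Pdia4 and Pdia3 thus rest on 1 probe set each, and the cause of the disagreement was not tested. In the same fit 1 further probe set each of Xbp1, Hspa5, Hyou1 and Derl1 passed over the 6 times (adjusted p 0.0236 to 0.0496), while the probe set used for the gene did not.

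**Figure D2:**
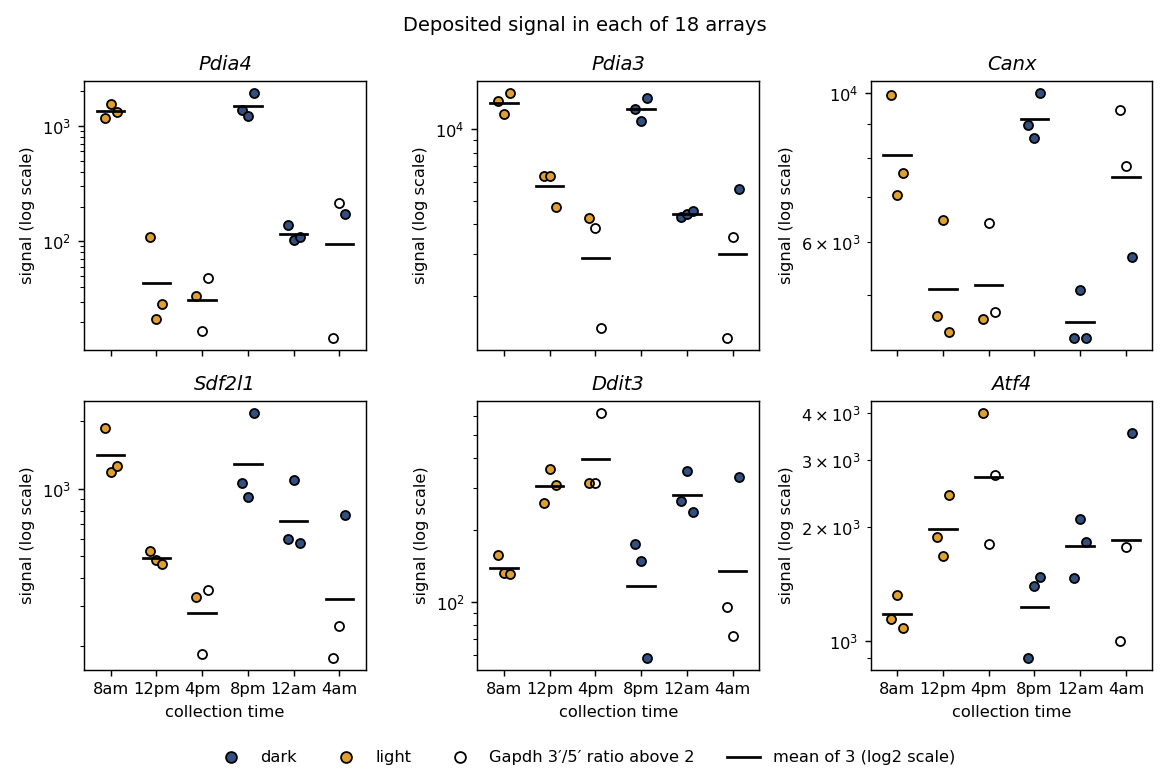
Deposited signal (log axis) of Pdia4, Pdia3, Canx, Sdf2l1, Ddit3 and Atf4 in each of the 18 arrays by collection time, with dark arrays in blue, light arrays in orange, open circles for a Gapdh 3′/5′ ratio above 2 and a bar at the mean of 3 on the log2 scale. Pdia4 and Pdia3 are high at 8am and 8pm with no overlap with other times, while Ddit3 is higher at 12pm and 12am than at 8am and 8pm.

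Among the 9 chaperones and their partners, only Sdf2l1 changed. Sdf2l1 is an ER protein that works with the Hsp70 chaperone (chr16:17130138-17132383). It had signals of 530.2, 482 and 462 at 12pm and 597, 1092 and 577 at 12am, against 1864, 1193 and 1262 at 8am and 1064, 918 and 2184 at 8pm. At 4pm it had 331, 183 and 354, and at 4am 177, 244 and 767. The array 12am b overlaps the 8pm values, and the other 5 of the 12-o'clock arrays lie below all 8-o'clock arrays. The log2 difference was -1.16 ± 0.31 (adjusted p = 0.0211), 2.23-fold lower at 12-o'clock, and the 6-time adjusted p was 0.00978.

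Hspa5 (BiP), the main Hsp70 chaperone of the ER and a standard readout of ER stress, moved less. Its signals were 13086, 9663 and 9157 at 8am, 9240.5, 6493 and 7034 at 12pm, then 6476, 6649 and 5825 at 4pm, 9245, 7775 and 12056 at 8pm, then 7492, 9812 and 7386 at 12am, and 7264, 10189.5 and 6403 at 4am. The highest values are in 8am a and 8pm c and the lowest in 4pm c. The 4pm arrays lie below those of 8am and 8pm, but 4pm b and 4pm c are of high Gapdh ratio. The share of all genes with this pattern was not counted. The log2 difference of 12-o'clock minus 8-o'clock was -0.35 ± 0.16 (adjusted p = 0.140), and the 6-time adjusted p was 0.120.

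Hyou1, a nucleotide exchange factor for BiP, had the largest 24 h amplitude of the 39 apart from Pdia4. Its signals were 2235, 1712 and 1695 at 8am, 1321, 1730.1 and 1259 at 12pm, then 1188, 1338 and 1744 at 4pm, 2340.3, 2209.5 and 2369.9 at 8pm, then 2978, 4385 and 1849 at 12am, and 2116, 6509 and 1368 at 4am. The dark arrays reach higher than the light ones, but their ranges overlap, and the single highest value is in 4am b, an array of high Gapdh ratio. The amplitude was 0.57 ± 0.16 on the log2 scale with a peak 18.2 h after lights on (unadjusted p = 0.00773, adjusted p = 0.948). Without the 4 arrays of high ratio the amplitude was 0.46 and the unadjusted p 0.00972.

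The other 6 chaperone genes did not pass any test across the times. Hsp90b1 (Grp94), the Hsp90 of the ER, ran between 4878 in 12am c and 10213 in 4am b, with a 12-o'clock minus 8-o'clock log2 difference of -0.20 ± 0.18. The J-domain partners of BiP gave -0.26 ± 0.22 for Dnajb9, -0.39 ± 0.19 for Dnajb11 and -0.38 ± 0.25 for Dnajc3. Dnajb9 (1858 to 7924) and Dnajc3 (960.0 to 4198) both had their lowest signal in 12am a and their highest in 4am a, an array of high Gapdh ratio. The secreted ER stress proteins Creld2 (459 to 1562) and Manf (1028 to 4039) gave -0.11 ± 0.23 and -0.10 ± 0.23, and both were highest in 8am a, as were Hspa5 and Dnajb11. All 9 chaperone genes, Sdf2l1 included, had a negative 12-o'clock minus 8-o'clock difference, with a median log2 difference of -0.26, against 0.04 over all genes tested. Over all genes 54.3% of the differences were positive. A negative median was not particular to the chaperones: it was -0.33 for the colon epithelium markers and -0.19 for the goblet cell markers. For the other cell type lists the median was positive. The array medians also differ between these times, and the main fit added no scaling between arrays. The part of this in the chaperone signs was not tested.

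**Figure D3:**
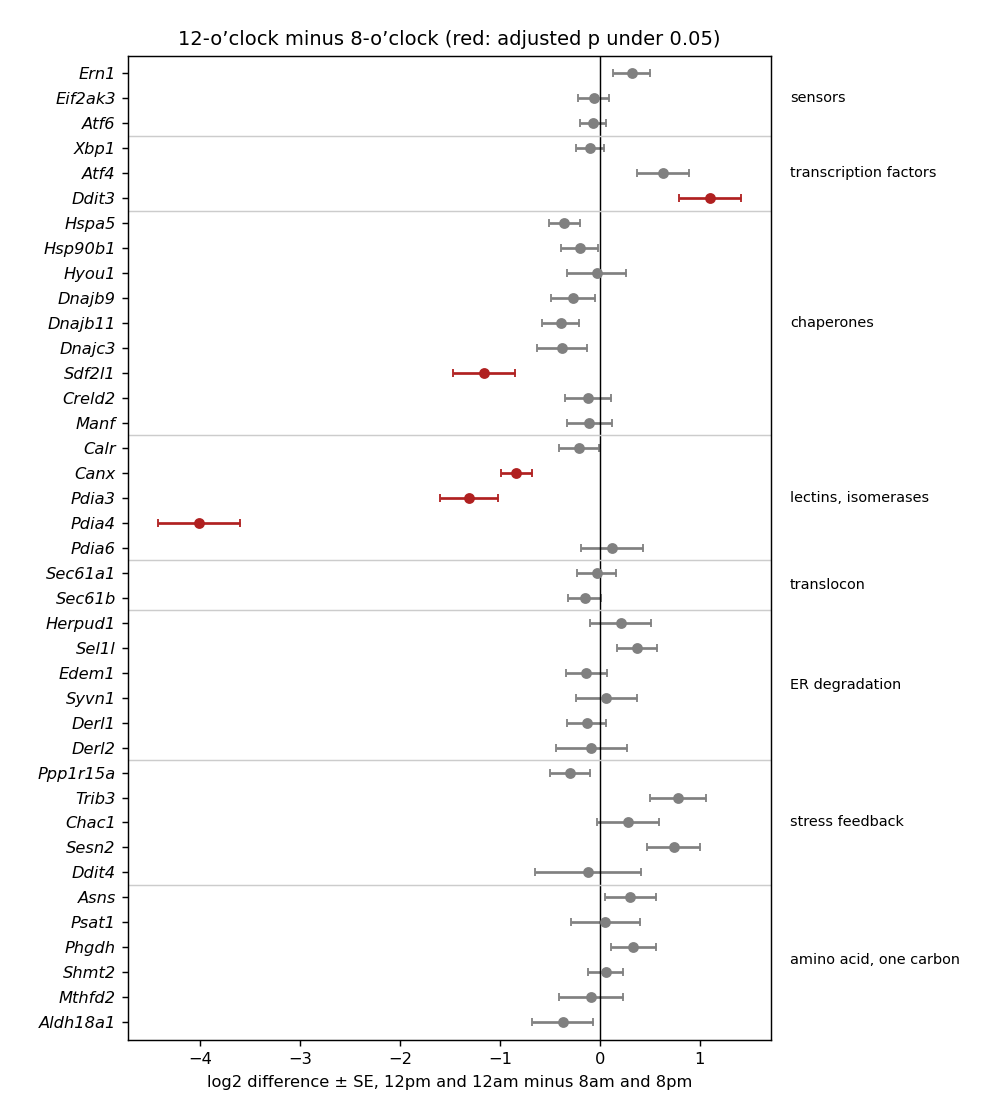
Log2 difference of the 12-o'clock arrays minus the 8-o'clock arrays (6 arrays each) with its SE for each of the 39 genes, grouped by role, with adjusted p under 0.05 in red. The 9 chaperones lie at or left of 0, Pdia4 lies at -4.02, and Ddit3 is the only gene in red right of 0.

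Ddit3 (CHOP), a transcription factor induced through Atf4, moved the opposite way (chr10:127290793-127296291). It had signals of 258, 359 and 308 at 12pm and 265, 352 and 237 at 12am, against 157, 132 and 131 at 8am and 175, 148 and 58.6 at 8pm. At 4pm it had 315, 315 and 618, and at 4am 95.02, 72.4 and 333. All 12-o'clock arrays lay above all 8-o'clock arrays. The log2 difference was 1.11 ± 0.31 (adjusted p = 0.0262), 2.15-fold higher at 12-o'clock. The 6-time adjusted p of 0.0427 lay close to the threshold and exceeded it in 16 of the 18 fits with 1 array left out. Over all 18 of these fits it ran from 0.00104 to 0.0776. A second probe set of Ddit3, under the filter, ran the other way, with mean log2 values of 5.98 at 12pm and 5.87 at 12am, against 7.51 at 8am and 7.34 at 8pm.

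Atf4 itself had signals of 1138, 1321 and 1079 at 8am, 1873, 1677 and 2424 at 12pm, then 3998, 1797 and 2738 at 4pm, 902, 1394 and 1469 at 8pm, then 1465, 2091 and 1824 at 12am, and 998, 1764 and 3528 at 4am. The 12-o'clock arrays lie above all of 8am and 8pm, except for 12am a. In the fit of every probe set, another set of Atf4 gave a log2 difference of -0.32 ± 0.23 (adjusted p = 0.394). A further set, under the filter, had mean log2 values of 6.95 at 12pm and 6.88 at 12am, against 5.22 at 8am and 5.73 at 8pm. For the probe set used for the gene, the log2 difference was 0.63 ± 0.26 (adjusted p = 0.115). Without the 4 arrays of high Gapdh ratio, none of which enters this difference, the error was smaller and the gene passed (adjusted p = 0.00392).

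Xbp1, which Ern1 splices to an active form, had signals of 11304, 8105 and 8840.1 at 8am, 8965, 9281 and 7319.6 at 12pm, then 7191, 8291 and 7772 at 4pm, 10471, 8817 and 9060.5 at 8pm, then 9484, 10335 and 7448 at 12am, and 10234, 12914 and 7697 at 4am. The 4pm arrays lie below the 8pm arrays, but 4pm b and 4pm c are of high Gapdh ratio. How many of all genes do so was not counted. The log2 difference of 12-o'clock minus 8-o'clock was -0.10 ± 0.14. Probe positions were not at hand, so the Xbp1 values cannot be assigned to the spliced or unspliced form. Of the sensors, Ern1 had a difference of 0.32 ± 0.19, Eif2ak3 of -0.06 ± 0.16 and Atf6 of -0.07 ± 0.13, and none passed. A pair of other Ern1 probe sets did pass in the fit of every probe set, with differences of 1.10 (adjusted p = 0.0186) and 0.76 (adjusted p = 0.0242), so the result for Ern1 depends on the probe set. Atf6 had one of the narrowest ranges of time means among the 39, 0.29 on the log2 scale. Ern1 and Eif2ak3 had their highest signals in 4am a, 2893 and 2453, an array of high Gapdh ratio.

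The translocon genes Sec61a1 and Sec61b, through which new proteins enter the ER, did not change with time, with log2 differences of -0.03 ± 0.19 and -0.15 ± 0.17. Their time means spanned 0.23 and 0.42. Another probe set of Sec61a1 had mean log2 values of 11.06 at 8am, 11.10 at 12pm, 8.28 at 4pm, 10.87 at 8pm, 10.57 at 12am and 7.38 at 4am. It is low at the 2 times that hold the arrays of high Gapdh ratio, while the probe set used for the gene is not.

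None of the 6 genes of ER degradation passed a test. Herpud1 helps assemble the degradation complex, Sel1l and Syvn1 form the ubiquitin ligase at its core, Edem1 picks out misfolded glycoproteins, and Derl1 and Derl2 belong to the machinery that moves proteins out of the ER. The 12-o'clock minus 8-o'clock log2 difference was positive for Herpud1 (0.21 ± 0.30), Sel1l (0.37 ± 0.20) and Syvn1 (0.06 ± 0.31) and negative for Edem1 (-0.13 ± 0.21), Derl1 (-0.13 ± 0.20) and Derl2 (-0.08 ± 0.35). Syvn1 had its lowest signals, 402 and 362, in 4am a and 4am b, and 1895 in 4am c, against 850.1 to 1820.4 at 4pm. Herpud1 likewise had 735 and 681 in 4am a and 4am b, and 2997 in 4am c. In both genes the low values are those of the arrays of high Gapdh ratio. In the probe set used for the gene, Derl1 differed, with its highest signals, 6549 and 8732, in the same arrays and 3334 in 4am c. Another Derl1 set had a mean log2 of 7.95 at 4am, against 9.96 to 10.67 at the other times. Its correlation with the set used was -0.76, and those of the remaining Derl1 sets were -0.79 and 0.72. The cause of these differences was not tested.

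The stress feedback genes did not pass either, although Sesn2 did not overlap between 12-o'clock and 8-o'clock arrays. Sesn2, a leucine sensor that restrains mTORC1, had signals of 325, 331 and 409 at 12pm and 443, 351 and 392 at 12am, against 223, 119 and 178 at 8am and 298, 312 and 232 at 8pm. At 4pm it had 416, 168 and 494, and at 4am 116, 282 and 333. The log2 difference was 0.74 ± 0.27 (adjusted p = 0.0731), and without the 4 arrays of high ratio the same difference had an adjusted p of 0.00353. Another Sesn2 probe set had a mean log2 of 8.16, against 8.21 for the one used. Its difference was 0.13 ± 0.30 (adjusted p = 0.832 in the fit of every probe set). Between 12-o'clock and 8-o'clock arrays, 5 of the 39 (12.8%) did not overlap, against 12.9% of all genes. Canx, Pdia3 and Pdia4 were lower and Ddit3 and Sesn2 higher at 12-o'clock.

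Ddit4 (Redd1), another inhibitor of mTORC1, had signals of 2629.9, 3480.4 and 2305 at 8am, 2648, 3199.5 and 3355 at 12pm, then 3008, 775 and 4125 at 4pm, 4581, 4139 and 3249 at 8pm, then 3671, 2628 and 2926 at 12am, and 158, 979.6 and 4044 at 4am. Its 3 low values all come from arrays of high Gapdh ratio, and it had the widest spread within times of the 39 genes, 1.08 on the log2 scale. Its 24 h amplitude was 0.53 ± 0.34 (unadjusted p = 0.320), and 0.16 without the 4 arrays. Trib3, a pseudokinase that inhibits Atf4, had a difference of 0.78 ± 0.28 (adjusted p = 0.0693), and Ppp1r15a (Gadd34), which restores translation, had -0.30 ± 0.20.

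A single array, 12am b, held the highest signal for 9 of the 39 genes (23.1%), against 7.54% of all genes tested. The 9 were Pdia6, Herpud1, Sel1l, Trib3, Chac1, Asns, Psat1, Phgdh and Mthfd2. Chac1 degrades glutathione and is an Atf4 target. It had signals of 151, 167 and 161 at 8am, 103, 86.3 and 155 at 12pm, then 50.7, 193 and 109.9 at 4pm, 127, 139.5 and 155 at 8pm, then 188, 624 and 228 at 12am, and 119.9, 131 and 58.6 at 4am. The value of 624 is in 12am b and is far above the other 17.

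Asns, asparagine synthetase and a classic Atf4 target, had signals of 1025, 684 and 720.4 at 8am, 758, 1076 and 716 at 12pm, then 829.6, 1623 and 626 at 4pm, 1035, 886 and 1184 at 8pm, then 1166, 2821 and 1036 at 12am, and 749, 725 and 682 at 4am. The highest is again 12am b. The same array had 2716 for Phgdh and 507 for Psat1, which begin serine synthesis, 939.5 for Mthfd2 of mitochondrial one-carbon metabolism and 5765 for Sel1l. The next highest signals were 1636 for Phgdh, 448 for Psat1, 543 for Mthfd2 and 3176 for Sel1l. Shmt2, which links serine and glycine in mitochondria, and Aldh18a1, which begins proline synthesis, were highest in other arrays. Of the 6 amino acid and one-carbon genes, all had a positive 12am minus 12pm difference with all arrays in the probe set used, as did 53.8% of all genes. Other probe sets varied in both directions. Mean log2 values at 12am and 12pm were 7.15 and 7.16 in one of Psat1, and 8.73 and 8.96 in one of Aldh18a1. One of Phgdh had 8.96 and 7.49. Without 12am b, the sets used gave differences of 0.02 for Phgdh, 0.29 for Psat1 and -0.13 for Mthfd2. With it they gave 0.31, 0.68 and 0.51. In the 12-o'clock minus 8-o'clock difference none of the 6 passed, and the values ran between -0.37 ± 0.31 for Aldh18a1 and 0.34 ± 0.22 for Phgdh.

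The same array stands out for digestive enzyme transcripts of the exocrine pancreas. The summed signal of Cpa1, Ctrb1, Cela2a and Cel was 91358 in 12am b, 25702 in 12am a and 845 in 12am c, and 1385, 850.0 and 9426 at 12pm. In the 8-o'clock arrays it was 167 to 285. These 4 were chosen after their values were seen, and the 6 pancreas markers on the array together gave 25824 to 136455 at 12-o'clock and 18193 to 31796 at 8-o'clock. The array with the next highest sum of the 4, 4pm b at 49188, also held the next highest Asns signal, and the lowest Phgdh signal, 656. It is an array of high Gapdh ratio. In 12am a, with a sum of 25702, Asns was 1166, below 1184 in 8pm c, where the sum was 263. The part of these transcripts in the values of 12am b, or in the differences between 12-o'clock and 8-o'clock, was not tested.

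**Figure D4:**
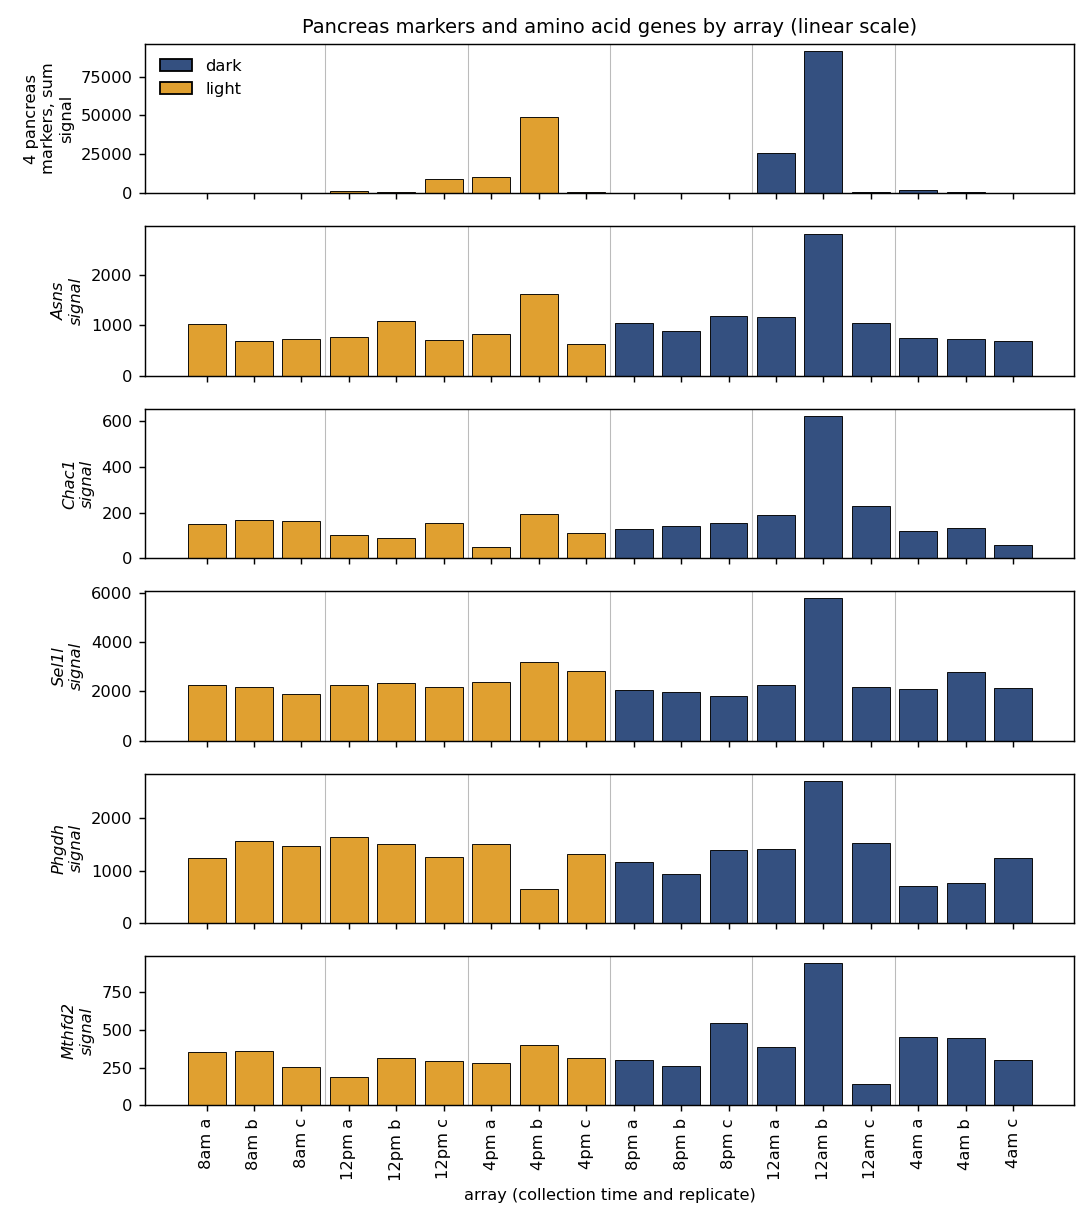
Signal in each of the 18 arrays (linear axes from 0; dark arrays blue, light arrays orange) for the sum of 4 pancreas markers and for Asns, Chac1, Sel1l, Phgdh and Mthfd2. The array 12am b is the highest in all 6 panels, with a marker sum of 91358 and an Asns signal of 2821.

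Differences between dark and light did not pass the test for any of the 39 genes, nor for any other gene (limma, 0% of all genes). At an unadjusted p under 0.05 there were 4 (10.3%), against 6.21% of all genes: Hyou1 (0.74 ± 0.24) and Pdia4 (0.84 ± 0.33) with higher values in the dark, Ddit3 (-0.60 ± 0.25) and Syvn1 (-0.59 ± 0.25) with lower ones. The lowest adjusted p of these was 0.732. The sign was positive for 22 genes and negative for 17 (48.6% positive among all genes), with a median log2 difference of 0.04, against -0.01 over all genes. Dark and light arrays overlapped for every gene tested.

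Times 12 h apart were compared in 3 pairs, and none of the 39 genes passed in any. At 8pm minus 8am 0.00777% of all genes passed, and no member reached an unadjusted p under 0.05, against 2.88% of all genes. Arrays of the pair did not overlap for 4 members (10.3%, against 14.1% of all genes), with Ppp1r15a and Sesn2 higher and Sec61b and Syvn1 lower at 8pm. At 12am minus 12pm 0% of all genes passed, and Chac1 (1.31 ± 0.44, adjusted p = 0.523), Hyou1 (1.02 ± 0.41, adjusted p = 0.552) and Asns (0.84 ± 0.36, adjusted p = 0.565) had an unadjusted p under 0.05, which is 7.69%, against 8.11% of all genes. Without 12am b these differences were 0.80, 0.72 and 0.39. At 12am Hyou1, Sdf2l1 and Chac1 were above and Pdia3 below all 12pm arrays (10.3%, against 21.3% of all genes).

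At 4am minus 4pm 0.0466% of all genes passed, and 7 members (17.9%) had an unadjusted p under 0.05, against 19.7% of all genes. The largest differences were Pdia6 (-1.47 ± 0.44, adjusted p = 0.151) and Ddit3 (-1.45 ± 0.44, adjusted p = 0.153). No member was free of overlap between these times, against 7.84% of all genes. All 4 arrays of high Gapdh ratio lie in this pair. Without them it compares 1 array with 1, and the differences were -0.05 for Pdia6 and 0.08 for Ddit3. The differences between the pairs themselves were also tested, and no member passed. The lowest adjusted p was 0.241 for Asns (4am minus 4pm against 12am minus 12pm), and 0.420 for Pdia6 (4am minus 4pm against 8pm minus 8am).

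A 24 h cosine curve was called for none of the 39 genes, and for 0.0389% of all genes. Only Hyou1 had an unadjusted p under 0.05, which is 2.56%, against 3.95% of all genes. The amplitudes ran up to 0.69 for Pdia4 (unadjusted p = 0.589), whose high values lie 12 h apart at 8am and 8pm, and down to 0.01 for Phgdh.

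Without the 4 arrays of high Gapdh ratio more of the genes passed. The 12-o'clock minus 8-o'clock differences keep their values, since none of the 4 arrays belongs to those times, and only the estimated error changes. Over the 6 times 9 passed, against 20.6% of all genes: the 5 above with Atf4 (adjusted p = 0.00194), Chac1 (0.0266), Hyou1 (0.0259) and Sesn2 (0.0185). In the 12-o'clock minus 8-o'clock difference 9 passed, against 33.5% of all genes: the 5 with Atf4 (0.63, adjusted p = 0.00392), Sesn2 (0.74, 0.00353), Trib3 (0.78, 0.0418) and Ern1 (0.32, 0.0386). At 4pm and 4am 1 array then remains each, and it is assumed to vary like the other times. The share of the 39 is 23.1% in both tests, above 20.6% in the first and below 33.5% in the second.

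Genes of the same pathways outside the 39 were counted in the same way. Of 68 further ER genes tested, 6 (8.82%, against 17% of all genes) passed over the 6 times: Fkbp2, Ddost, Creb3l2, Dad1, Ppib and Mbtps2. In the 12-o'clock minus 8-o'clock difference, 46 of the 68 values were negative and 22 positive, and 6 passed as lower and 2 as higher. Among all genes, 54.3% of these differences were positive and 14.1% passed, so the calls are no more frequent than the background. Those that passed include Ppib, a proline isomerase of the ER (-0.75, adjusted p = 0.0189), Kdelr3, a receptor that returns ER proteins (-1.12, adjusted p = 0.0262), and Creb3l2, a membrane-bound transcription factor (0.90, adjusted p = 0.00251). Of 45 further genes of the amino acid response, 7 (15.6%) passed over the 6 times. At 12-o'clock 3 of these 45 passed as higher and 2 as lower, while 9.46% of all genes passed as higher and 4.65% as lower. Sars, seryl-tRNA synthetase, fell by 0.89 on the log2 scale (adjusted p = 0.0137), and Stc2, a secreted stanniocalcin, rose by 0.69 (adjusted p = 0.0115).

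Summed signals of some cell type markers also differed between these arrays, although few single markers passed. Among all genes, 14.1% passed in the 12-o'clock minus 8-o'clock difference. The summed signal of the 7 colon epithelium markers was 66561 to 86913 at 12-o'clock and 90756 to 105491 at 8-o'clock, with no overlap. Of the 7, 1 passed as lower, and the differences were negative in 5 and positive in 2. For the 9 goblet cell markers the ranges were 85570.0 to 122643 and 108056 to 141394, with none passed. The sums of smooth muscle, macrophage, adipocyte and squamous epithelium markers overlapped, and of these markers only 1, of squamous epithelium, passed. Plasma cell markers (18205 to 31981 at 12-o'clock, 10075 to 38942 at 8-o'clock) overlapped. Enteric neuron markers did not (2715 to 3554 at 12-o'clock, 1776 to 2672 at 8-o'clock), and 1 of 4, Vip, passed as higher, while the differences of the 4 were positive in 2 and negative in 2. The part of these cell types in the differences of Pdia4, Pdia3, Sdf2l1, Canx and Ddit3 was not tested. The labels give no hybridisation or scan date.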

How the data were processed

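Total RNA from mouse distal colon was hybridised to 18 Affymetrix arrays, 3 per collection time. The authors deposited 1 table with a linear signal (intensity) per probe set and array, made with GCOS, the Affymetrix software, per the submitters' processing notes; its version is not given in the sources used here. Each deposited intensity was taken as log2(signal + 16). Of 45101 probe sets, 64 were controls, 34945 had 1 gene symbol, 932 several and 9160 none listed. Probe sets at or above the 40th percentile of mean log2 (7.10) were kept, and each gene was represented by its probe set of highest mean, which gave 12870 genes. Linear models were fitted over all 18 arrays with limma 3.58.1 in R 4.3.3 (empirical Bayes with a trend): an F test of 6 time means, contrasts of those means, and a 24 h cosine curve. Tests are two-sided, and adjusted p is by Benjamini-Hochberg across the 12870 genes, at a threshold of 0.05. The fits were tested on simulated data. Groups come from the collection time in the titles. The 39 genes, the marker and pathway lists and the tests were chosen with earlier results of these data known.

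Values in every array are printed, by rule, for members past the 6-time test, for the 2 members with the largest difference in each contrast, for the 3 largest 24 h amplitudes, and for Hspa5, Xbp1, Atf4, Ddit3 and Asns. Other members are given by range and count. Alternatives covered the constant, quantile normalization, the filter, the probe set, the trend, array quality weights, a replicate block, the arrays of high Gapdh ratio, each array left out in turn and a 12 h harmonic in the curve. Promoters and gene positions come from RefSeq on GRCm38.p6.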

Additional observations from a re-analysis of the deposited data

How the results depend on the processing

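Among the 39 genes, the 6-time test called 5. It called 3 with the filter at the 60th percentile (which removes Pdia4 and Ddit3), 3 with the probe set of largest SD, 9 without the 4 arrays of high Gapdh ratio, 26 with array quality weights (8974 of all genes) and 4 to 20 with 1 array left out, the 20 without 4am c (6931 of all genes). With alternatives chosen after the data were seen, it called 8 with every probe set tested on its own and 0 without 8am and 8pm, when 4 genes passed in all. The 12-o'clock minus 8-o'clock contrast called 5, and 3, 9 and 11 with that filter, without those 4 arrays and with the weights, and 3 to 7 with 1 array left out, the 3 without 12pm c or without 8pm c. Array weights called 4 genes for dark minus light, 3 for 12am minus 12pm and 12 for 4am minus 4pm, against 0 with equal weights. Leaving out 1 array gave 0 to 4 for dark minus light and 0 to 13 for 4am minus 4pm, with the 4 and the 13 both without 4am c. The cosine and 8pm minus 8am tests called 0 under every setting run. Pdia3 and Sdf2l1 passed the 6-time test under all settings with 6 times, and Pdia4 wherever it was tested. Sdf2l1 lost its 12-o'clock call in 4 of 18 omissions (adjusted p up to 0.0609) and Ddit3 in 5 (up to 0.0723). Ddit3 also lost both calls under quantile normalization (0.0597 and 0.0704). There the 12-o'clock minus 8-o'clock log2 difference was -0.61 for Canx and -1.04 for Pdia3, against -0.84 and -1.31 in the main fit. That of Pdia4 was -4.21 and that of Sdf2l1 -1.19, against -4.02 and -1.16. With the replicate block the 6-time test called 4, Ddit3 missing (0.0589), and the contrast 5. Same-letter arrays did not deviate together on average (mean r -0.01 over 45 pairs, range -0.49 to 0.295, 4 of 18 arrays closest to their own letter). The labels give no meaning for the letters, so whether they pair samples is not known. The cause of these changes was not tested.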
